A study of Mus musculus with 7 samples.

Results

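The genes of MHC class II antigen presentation were followed in RNA sequencing of knee cartilage from wild type (WT) and Trpc1-/- mice after destabilisation of the medial meniscus (DMM), a surgical model of osteoarthritis. The 10 genes, chosen by exact gene name, were H2-Aa, H2-Ab1, H2-Eb1, Cd74, H2-DMa, H2-DMb1, H2-DMb2, H2-Oa, H2-Ob and Ciita, out of 55401 genes in the table. All 10 were found, and all 10 passed the filter on low values, which asked for more than 1 CPM (counts scaled to a common library size) in at least 2 samples and left 16429 genes.

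By their labels there were 4 WT and 3 Trpc1-/- samples, each pooled from 2 to 3 male mice of the C57BL/6J strain. The study's methods give the group sizes the other way round, and the labels were followed. The labels name only articular cartilage as the tissue, while the methods name subchondral bone beside it, so bone may have been part of each sample. All mice had the right knee operated on at 10 weeks of age and were killed 2 weeks later. By the methods each left knee had a sham operation, but neither sham knees nor unoperated mice entered the comparison. A genotype difference from before the injury can therefore not be told apart from a response to it. The knockout is constitutive and affects the whole animal, immune cells included, and its allele lacks an exon of Trpc1, a calcium-permeable cation channel. The comparison asks how the tissue differs between genotypes early after the injury.

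The deposited estimated counts summed to 52142451, 99831099, 116815517 and 75284143 in WT replicates 1 to 4 and to 118254070, 94972137 and 106517535 in Trpc1-/- replicates 1 to 3. WT replicate 1 stood apart: it was the shallowest library, and mt-Rnr2, a mitochondrial ribosomal RNA, took 19.6% of its counts. The mt-Rnr2 share was 12.3% to 12.9% in the other WT samples and 13.1% to 15.4% in Trpc1-/-. Without WT replicate 1 this share was thus higher in every Trpc1-/- sample. WT replicate 1 was also the lowest of all 7 samples for 9 of the 10 genes. Each of the 10 genes is therefore given with and without it, and other values where it moves them most.

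The targeted gene, Trpc1, was at 4.83, 4.55, 4.77 and 4.33 CPM in WT and at 3.35, 3.79 and 3.04 CPM in Trpc1-/-. All 3 Trpc1-/- samples lay below the 4 WT samples, with a log2 fold change of -0.44 ± 0.13 (SE; edgeR adjusted P = 0.407). Counts of the whole gene include the exons that the allele keeps, so they do not check the deletion.

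MHC class II molecules present peptides from endocytosed proteins to CD4 T cells. They pair an alpha and a beta chain, which assemble in the endoplasmic reticulum on the invariant chain, the product of Cd74. In the endosome, proteases cut the invariant chain down to a short peptide in the binding groove, and H2-DM exchanges it for antigenic peptides, while H2-O restrains H2-DM. Constitutive expression is largely the work of B cells, dendritic cells and macrophages, and other cells can be induced by interferon gamma through Ciita, the transactivator that is recruited to class II promoters by factors bound at their X and Y boxes.

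The proximal promoters are shown because class II genes are known to be controlled through the X and Y boxes. RefSeq promoter windows on GRCm38.p6 were at hand for 7 of the 10 genes. H2-Ab1, Cd74 and Ciita had no entry. The 250 bases before each start were searched on both strands for the Y box core TGATTGG and for the letters GNAAC, from the start of the X box, placed 20 to 40 bases ahead of TGATTGG. The letters and the spacing were chosen with these promoters in view, and the 2 strings do not overlap. The stretches from the X box letters to the Y box, both in capitals, read as follows.
H2-Aa: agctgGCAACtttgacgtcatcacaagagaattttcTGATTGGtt
H2-Eb1: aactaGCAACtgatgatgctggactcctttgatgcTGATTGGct
H2-Eb2: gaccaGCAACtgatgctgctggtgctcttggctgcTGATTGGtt
H2-Ob: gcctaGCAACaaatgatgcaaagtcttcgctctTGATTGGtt

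These lie at chr17:34287865-34287909 on the minus strand for H2-Aa, and on the plus strand at chr17:34305771-34305814 for H2-Eb1, chr17:34325538-34325581 for H2-Eb2 and chr17:34238813-34238854 for H2-Ob. H2-Eb2 is another beta chain gene, outside the 10. TGATTGG was present in 6 of the 7 genes with a window, all but H2-DMa, and in 7.23% of all 32851 promoter windows. The pair of strings was present in 5 of the 7, namely H2-Aa, H2-Eb1, H2-DMb1, H2-Oa and H2-Ob, and in 0.487% of all windows. The spacer between the strings was 26 bases in H2-Aa, H2-DMb1 and H2-Oa, 25 in H2-Eb1 and 23 in H2-Ob. A match describes the letters only and shows no binding.

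Of the 10 genes, 8 sit within the class II region of chromosome 17, from H2-Oa, which starts at position 34092340, to H2-Eb1, which ends at position 34316674 (GRCm38, GENCODE annotation). Ciita lies on chromosome 16 and Cd74 on chromosome 18. H2-Aa (chr17:34282744-34287823) is read from the minus strand and the other 7 from the plus strand.

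All 10 class II genes had a log2 fold change above 0, Trpc1-/- over WT, and the chains of the class II molecule and the invariant chain had the smallest P. The median was 0.52 and the range 0.21 to 0.62, while the median over all tested genes was -0.01 and 7904 of 16429 were above 0. By edgeR with adjustment over all tested genes none of the 10 was called, as none of the 16429 was (0%). At an unadjusted P under 0.05, 8 of the 10 were higher, all but H2-DMa and H2-DMb1, against 4.51% of all tested genes. This count depended on single samples. It was 4 without Trpc1-/- replicate 3 (2.18% of all tested genes), 5 without WT replicate 2 (2.99%) or Trpc1-/- replicate 2 (3.91%), 7 without WT replicate 1 (8.48%), 3 (4.61%) or 4 (3.52%), and 8 without Trpc1-/- replicate 1 (2.36%). H2-Aa, H2-Ab1, H2-Eb1 and Cd74 were at that P in all 7 of these fits, H2-DMb2 in 6, H2-Oa in 4, H2-Ob and Ciita in 2, H2-DMb1 in 1 and H2-DMa in 0. DESeq2 called 4 of the 10 as higher, H2-Aa, H2-Ab1, H2-Eb1 and Cd74, against 0.962% of all tested genes. DESeq2 is the study's own tool, and the study's list of top genes holds H2-Aa, H2-Ab1 and H2-Eb1 with the same adjusted P. These calls thus repeat the published result and are not separate from it. On 1 set of simulated counts the share of false calls was above the threshold for edgeR, limma-voom and DESeq2, and highest for DESeq2. That set drew genes independently and held no outlying library, and a single set does not measure the rate of false calls closely. It remains a reason for caution on every call by adjusted P given here. For 7 of the 10, every Trpc1-/- sample lay above every WT sample, as for 7.15% of all tested genes, and for H2-DMa, H2-Ob and Ciita the groups overlapped. The 10 genes are not independent, so these counts are not 10 separate observations. H2-Aa, H2-Ab1, H2-Eb1 and Cd74 had Pearson correlations of 0.967 to 0.998 with each other, and 9 of the 10 share the low WT replicate 1. Without WT replicate 1, edgeR called 3 of the 10 as higher (0.158% of all tested genes) and DESeq2 called 5 (3.17%), and the median log2 fold change of the 10 was 0.42. DESeq2 called H2-Aa and H2-Eb1 with any 1 of the 7 samples left out, but not H2-Ab1 or Cd74, as given below.

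In tissue measured in bulk, fewer cells of a type and less RNA per cell cannot be told apart, and this holds for each gene described here.

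**Figure D1:**
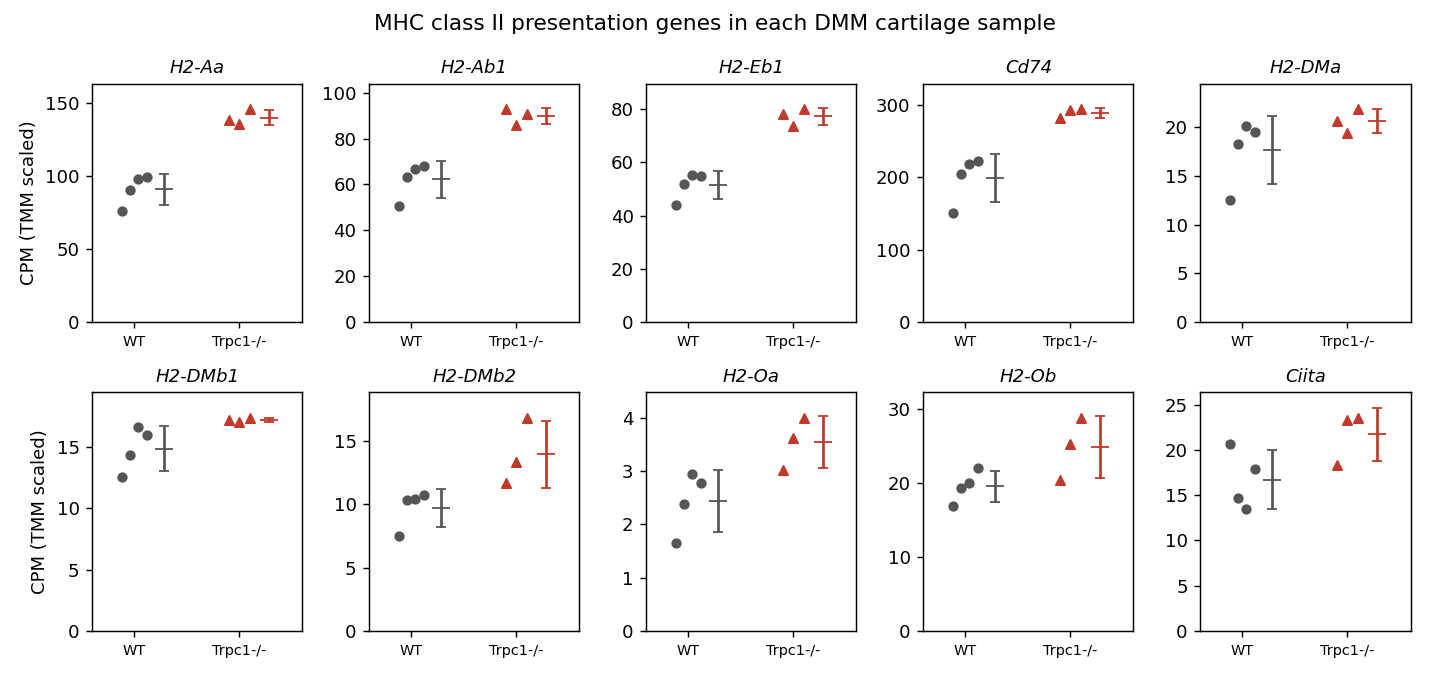
CPM scaled by TMM (vertical axes, each from 0) of each class II gene in the 4 WT (circles) and 3 Trpc1-/- samples (triangles), with the mean and SD beside each group. The groups do not overlap for H2-Aa, H2-Ab1, H2-Eb1, Cd74, H2-DMb1, H2-DMb2 and H2-Oa.

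H2-Aa encodes the alpha chain of I-A, the class II molecule of this strain. Its level was 75.9, 90.5, 98.1 and 99.3 CPM in WT and 138, 136 and 146 CPM in Trpc1-/-. The lowest Trpc1-/- sample was well above the highest WT sample, and the gap was wider than the range within either group. The means were 90.9 ± 10.7 CPM (SD, n = 4) and 140.03 ± 5.19 CPM (SD, n = 3). The log2 fold change was 0.62 ± 0.11 (SE), a ratio of 1.54, with an adjusted P of 0.337 by edgeR and 2.56e-05 by DESeq2. Without WT replicate 1 it was 0.54 ± 0.06 (SE; edgeR adjusted P = 0.0223).

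H2-Ab1 encodes the beta chain that pairs with H2-Aa. It was at 50.8, 63.2, 66.8 and 68.3 CPM in WT and at 92.8, 85.9 and 90.6 CPM in Trpc1-/-. Again the groups did not overlap, and WT replicate 1 was the lowest sample. This is a log2 fold change of 0.53 ± 0.11 (SE), with an adjusted P of 0.381 by edgeR and 0.00293 by DESeq2. Without WT replicate 1 it was 0.44 ± 0.06 (SE; edgeR adjusted P = 0.0337). The DESeq2 call was lost without WT replicate 2 (adjusted P = 0.0553), Trpc1-/- replicate 1 (0.111) or Trpc1-/- replicate 3 (0.136), and with the replicate number as a block (0.0998).

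H2-Eb1 encodes the beta chain of I-E, the other class II molecule of mice. Its level was 43.9, 51.9, 55.1 and 54.9 CPM in WT and 78.2, 73.7 and 79.9 CPM in Trpc1-/-. All Trpc1-/- samples were above all WT samples. The log2 fold change was 0.59 ± 0.09 (SE), with an adjusted P of 0.334 by edgeR and 1.58e-05 by DESeq2, and 0.52 ± 0.06 (SE; edgeR adjusted P = 0.0218) without WT replicate 1. C57BL/6 mice are known to make no I-E alpha chain, and H2-Ea was at 0 counts in all 7 samples, so the H2-Eb1 transcripts were measured without those of a partner. A total of 0 allows up to 3 counts, which is 0.0244 to 0.0632 CPM at these depths for counting error only. H2-Eb2, a beta chain gene of low level, ranged from 0.991 to 1.68 CPM in WT and from 1.59 to 2.54 CPM in Trpc1-/-, with overlapping groups and a log2 fold change of 0.62 ± 0.24 (SE; edgeR adjusted P = 0.478).

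Cd74 encodes the invariant chain, which guides the class II molecule to the endosome and blocks its groove on the way. It was at 151, 205, 218 and 223 CPM in WT and at 281, 292 and 294 CPM in Trpc1-/-. The Trpc1-/- samples lay close together and above every WT sample, and WT replicate 1 was far below the other WT samples. For Cd74 the log2 fold change was 0.54 ± 0.14 (SE), with an adjusted P of 0.395 by edgeR and 0.0202 by DESeq2. Without WT replicate 1 it was 0.42 ± 0.06 (SE), and edgeR's adjusted P was 0.0555, just past the threshold of 0.05. The DESeq2 call of Cd74 was lost without WT replicate 2 (adjusted P = 0.127), Trpc1-/- replicate 1 (0.185), 2 (0.0950) or 3 (0.311), and with the replicate number as a block (0.0567).

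H2-DM is the peptide exchange factor, with an alpha chain from H2-DMa and a beta chain from H2-DMb1 or H2-DMb2. H2-DMa was at 12.5, 18.3, 20.1 and 19.5 CPM in WT and at 20.6, 19.4 and 21.8 CPM in Trpc1-/-. Its groups overlapped, and apart from WT replicate 1 the samples spanned a narrow range. The log2 fold change was 0.23 ± 0.16 (SE; edgeR adjusted P = 0.619), and 0.09 ± 0.07 (SE; edgeR adjusted P = 0.513) without WT replicate 1.

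H2-DMb1 was at 12.5, 14.4, 16.7 and 16.0 CPM in WT and at 17.2, 17.1 and 17.4 CPM in Trpc1-/-. The groups did not overlap, but the highest WT sample was close to the lowest Trpc1-/- sample. Its log2 fold change was 0.21 ± 0.10 (SE; edgeR adjusted P = 0.528), and 0.13 ± 0.07 (SE; edgeR adjusted P = 0.379) without WT replicate 1. H2-DMb2 was at 7.48, 10.3, 10.4 and 10.8 CPM in WT and at 11.7, 13.3 and 16.8 CPM in Trpc1-/-. The Trpc1-/- samples were all above WT and more spread out than those of H2-DMb1. For H2-DMb2 the log2 fold change was 0.52 ± 0.17 (SE; edgeR adjusted P = 0.426), and 0.41 ± 0.13 (SE; edgeR adjusted P = 0.188) without WT replicate 1. The 2 beta chain genes are close copies: of all stretches of 75 bases in their protein-coding transcripts, 19.1% of those of H2-DMb1 and 14.6% of those of H2-DMb2 occur in the other gene. The split of reads between them is therefore uncertain.

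H2-O, the restrainer of H2-DM that is best known from B cells, has its alpha chain from H2-Oa and its beta chain from H2-Ob. H2-Oa was low, at 1.64, 2.38, 2.94 and 2.77 CPM in WT and 3.02, 3.63 and 4.00 CPM in Trpc1-/-. Its groups were separated by a small margin, with a log2 fold change of 0.54 ± 0.22 (SE; edgeR adjusted P = 0.487). With WT replicate 1 left out it was 0.39 ± 0.16 (SE; edgeR adjusted P = 0.268). H2-Ob was at 16.9, 19.2, 20.03 and 22.04 CPM in WT and at 20.4, 25.3 and 28.8 CPM in Trpc1-/-. Trpc1-/- replicate 1 fell among the WT samples, and the log2 fold change was 0.34 ± 0.13 (SE; edgeR adjusted P = 0.475). It was 0.28 ± 0.12 (SE; edgeR adjusted P = 0.299) without WT replicate 1 and 0.23 without Trpc1-/- replicate 3.

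Ciita encodes the transactivator on which class II transcription depends. It was at 20.7, 14.7, 13.5 and 17.9 CPM in WT and at 18.3, 23.2 and 23.5 CPM in Trpc1-/-. Ciita was the exception to the pattern of WT replicate 1, which was the highest WT sample here and lay above Trpc1-/- replicate 1. The log2 fold change was 0.38 ± 0.16 (SE; edgeR adjusted P = 0.499). Without WT replicate 1 it was 0.50 ± 0.13 (SE), with an adjusted P of 0.149 by edgeR and 0.0127 by DESeq2, and Ciita was then the fifth gene that DESeq2 called.

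**Figure D2:**
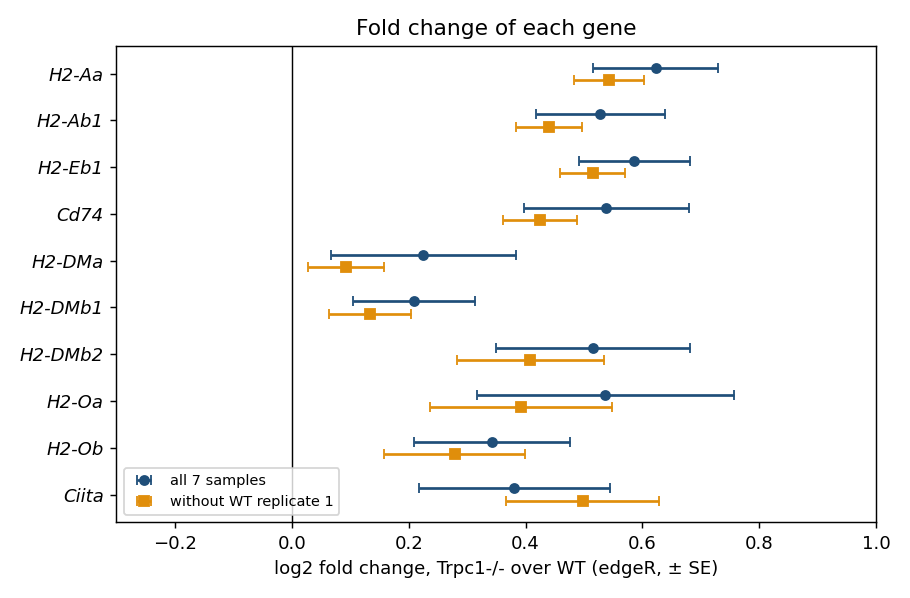
Log2 fold change of each class II gene, Trpc1-/- over WT (horizontal axis), by edgeR with its SE as bars, from all 7 samples (circles) and without WT replicate 1 (squares). All 20 points lie above 0; without WT replicate 1 the value is smaller for 9 genes and larger for Ciita, and the bars are shorter.

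The library labels carry numbers in a lower range for WT replicates 1 and 2 and all 3 Trpc1-/- samples, and in a higher range for WT replicates 3 and 4. Whether they number mice or pools, and whether the ranges mark separate cohorts, is not given in the sources used here. Among the 5 samples of the lower range the median log2 fold change of the 10 genes was 0.65, with 0.75 ± 0.13 (SE; edgeR adjusted P = 0.378) for H2-Aa, and that fit kept WT replicate 1.

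Levels of different genes were compared per length, as TPM (counts per base of exon, scaled to the same sum in each sample). Mean TPM in WT fell from 171 ± 48.6 (SD, n = 4) for Cd74 to 97.4 ± 23.8 for H2-Aa, 62.2 ± 15.7 for H2-Ab1 and 37.2 ± 8.72 for H2-Eb1. A step then separated the chains and Cd74 from the accessory genes. Mean TPM was 12.8 ± 3.13 for H2-DMb1, 8.06 ± 2.51 for H2-DMa, 6.77 ± 1.89 for H2-DMb2, 6.71 ± 1.53 for H2-Ob, 2.74 ± 0.925 for H2-Oa and 2.38 ± 0.249 for Ciita. The order from Cd74 down to H2-DMa, and that of H2-Ob over H2-Oa, held in all 7 samples. H2-DMa and H2-DMb2, H2-DMb2 and H2-Ob, and H2-Oa and Ciita did not differ beyond their SD in WT, and their order held in 5, 5 and 6 of 7 samples.

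Ratios of counts within a sample need no scaling between libraries. They were taken for the other 9 genes over H2-Aa, and for H2-Aa over the most abundant marker of each of 7 cell types, and these 16 pairs were chosen after the values had been seen. With 4 against 3 samples the exact permutation test has 35 splits and a smallest P of 0.0286. No pair passed the threshold after Benjamini-Hochberg adjustment over the 16, where the smallest adjusted P was 0.114, so these ratios are descriptions. H2-Aa had the largest log2 fold change of the class II genes (0.62). Ratios over it were thus bound to lean lower in Trpc1-/-, and ratios of it over markers to lean higher. They draw on the same counts as the fold changes and are no separate evidence.

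Ratios among the chains and Cd74 differed little between the groups. H2-Eb1 counts per H2-Aa count were 0.578, 0.574, 0.562 and 0.553 in WT and 0.565, 0.542 and 0.548 in Trpc1-/-. The groups overlapped, with a log2 difference of -0.04 (two-sided exact permutation P = 0.143, adjusted 0.229). H2-Ab1 counts per H2-Aa count were 0.669, 0.698, 0.681 and 0.688 in WT and 0.671, 0.632 and 0.621 in Trpc1-/-, with a log2 difference of -0.09 (two-sided exact permutation P = 0.0571, adjusted 0.114). Cd74 counts per H2-Aa count were 1.99, 2.26, 2.22 and 2.24 in WT and 2.03, 2.15 and 2.01 in Trpc1-/-, with a log2 difference of -0.08 (two-sided exact permutation P = 0.229, adjusted 0.305). The overlap in these last 2 ratios came from WT replicate 1. Without it both were lower in every Trpc1-/- sample, with log2 differences of -0.10 for H2-Ab1 and -0.12 for Cd74.

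Larger differences were found for H2-DMb1, H2-DMa and H2-Ob, the class II genes with the smallest log2 fold changes (0.21, 0.23 and 0.34). H2-DMb1 counts per H2-Aa count were 0.165, 0.159, 0.170 and 0.161 in WT and 0.124, 0.126 and 0.119 in Trpc1-/-. All Trpc1-/- samples were below all WT samples, with a log2 difference of -0.41 (two-sided exact permutation P = 0.0286, adjusted 0.114). H2-DMa over H2-Aa was likewise lower in every Trpc1-/- sample, by a log2 difference of -0.38 (two-sided exact permutation P = 0.0571, adjusted 0.114). H2-Ob over H2-Aa was lower in every Trpc1-/- sample too, by -0.29 (two-sided exact permutation P = 0.0286, adjusted 0.114). Leaving out WT replicate 1 gave log2 differences of -0.41, -0.45 and -0.28 for H2-DMb1, H2-DMa and H2-Ob, and the groups were still apart; without Trpc1-/- replicate 1 that of H2-Ob was -0.17. For H2-DMb2, H2-Oa and Ciita over H2-Aa the groups overlapped, with log2 differences of -0.11, -0.06 and -0.24. They were -0.15, -0.15 and -0.05 without WT replicate 1, also with overlap. With any 1 sample left out they ran from -0.23 to -0.00276 for H2-DMb2, from -0.15 to 0.04 for H2-Oa and from -0.38 to -0.05 for Ciita, so none of these 3 is firm in size, nor that of H2-Oa in direction.

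**Figure D3:**
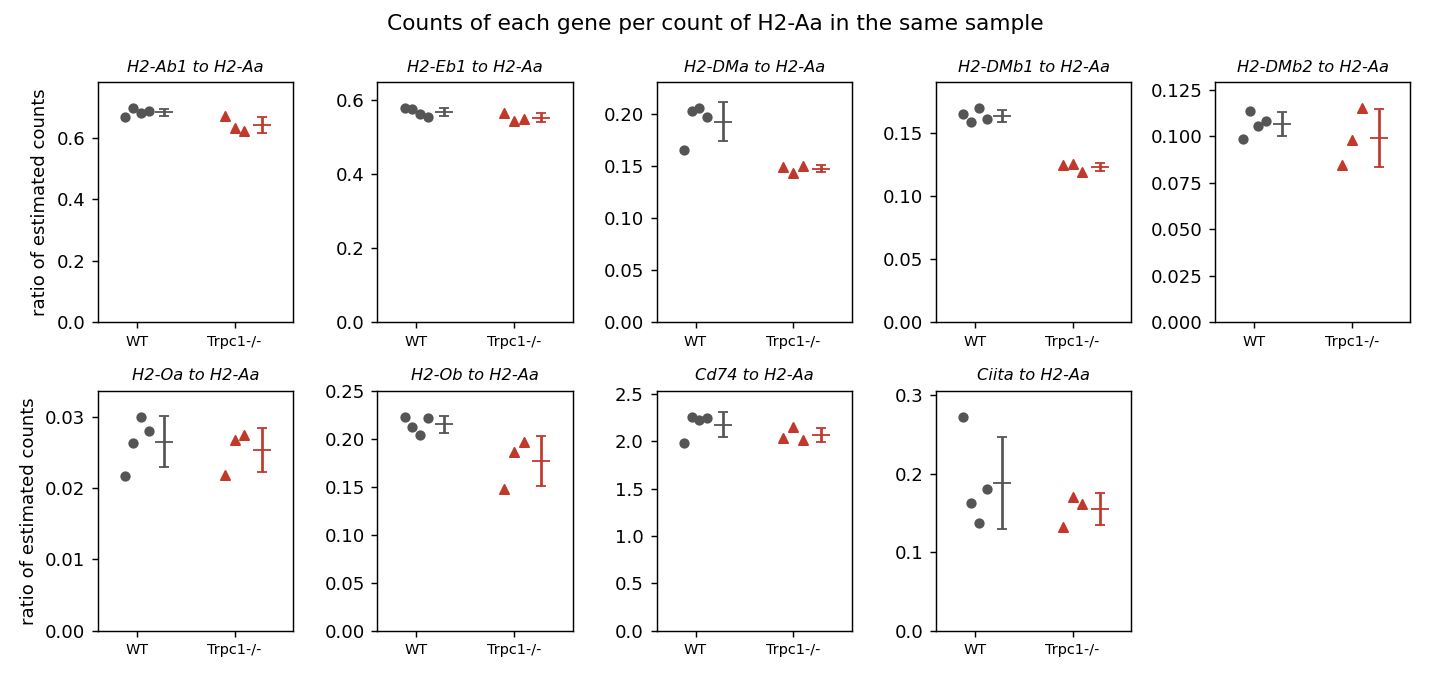
Estimated counts of each class II gene divided by those of H2-Aa in the same sample (vertical axes, each from 0) for 4 WT (circles) and 3 Trpc1-/- samples (triangles), with mean and SD. The groups are apart for H2-DMa, H2-DMb1 and H2-Ob and overlap for the other 6 ratios.

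Other genes of the pathway were taken as lists. The 7 factors of class II promoters, the subunits of RFX and NF-Y with Creb1, had 0 genes at an unadjusted edgeR P under 0.05 and a median log2 fold change of 0.09. The median was 0.05 without Trpc1-/- replicate 1, and 1 of the 7 factors was higher at that P without WT replicate 3 (4.61% of all tested genes). Creb1, the most abundant of them, was at 102 to 110 CPM in WT and 114 to 117.5 CPM in Trpc1-/-, without overlap (log2 fold change 0.11 ± 0.07, SE; edgeR adjusted P = 0.575). The route from interferon gamma to Ciita also had 0 of 7 tested genes at that P, with a median of 0.07. Ifng itself failed the filter, at 0.0211 to 0.147 CPM in WT and 0.0490 to 0.226 CPM in Trpc1-/-, and Jak1, the most abundant gene of the route, had a log2 fold change of 0.07 ± 0.08 (SE; edgeR adjusted P = 0.757). The median of this list was -0.03 without WT replicate 1, and Jak1 then had 0.04.

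The list of endosomal proteases and the thiol reductase, which prepare antigen and trim the invariant chain, also holds Cst3, an inhibitor of such proteases. Of its 8 genes, Cst3 included, 0 reached an unadjusted P under 0.05, and the median log2 fold change was 0.03. Ctsb, the most abundant, had 0.16 ± 0.17 (SE; edgeR adjusted P = 0.725). With WT replicate 1 left out the median was -0.13, Ctsb had 0.03, and 2 of the 8 were lower at an unadjusted P under 0.05 (8.38% of all tested genes). The turnover list holds the ubiquitin ligases Marchf1 and Marchf8, which send class II to degradation, and Cd83, which opposes Marchf1. In it 2 of 3 genes were higher at an unadjusted P under 0.05 (4.51% of all tested genes). Marchf1 had a log2 fold change of 0.37 ± 0.12 (SE; edgeR adjusted P = 0.439). Marchf8 was at 135 to 148 CPM in WT and 160 to 194 CPM in Trpc1-/-, without overlap (log2 fold change 0.28 ± 0.09, SE; edgeR adjusted P = 0.433). All 3 were higher at that P without WT replicate 1, against 8.48% of all tested genes in that fit, and without Trpc1-/- replicate 1 none of the 3 was (2.36%).

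The costimulation list had 0 of 4 genes at an unadjusted P under 0.05 and a median of -0.03. The median was 0.06 without WT replicate 4 and 0.07 without Trpc1-/- replicate 1, with 3 of 4 above 0 in both. Without WT replicate 3, 1 of the 4 was higher at that P (4.61% of all tested genes). Cd86 was higher in every Trpc1-/- sample (log2 fold change 0.36 ± 0.16, SE; edgeR adjusted P = 0.499), and Icosl, the most abundant, had -0.04 ± 0.13 (SE; edgeR adjusted P = 0.925). These were 0.24 and -0.11 without WT replicate 1, where 1 of the 4 genes was higher at that P (8.48% of all tested genes). The class II ligands on T cells, Cd4 and Lag3, had 0 of 2, and Cd4 had a log2 fold change of 0.24 ± 0.20 (SE; edgeR adjusted P = 0.671), which was 0.08 without WT replicate 1.

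The class I pathway, which presents peptides of cytosolic origin to CD8 T cells, was set beside class II. Of its 13 genes 11 had a log2 fold change above 0, the median was 0.15, and 0 reached an unadjusted P under 0.05. H2-D1, the most abundant, was at 335, 503, 547 and 507 CPM in WT and at 583, 498 and 498 CPM in Trpc1-/-. Its groups overlapped, and WT replicate 1 was again the lowest (log2 fold change 0.15 ± 0.17, SE; edgeR adjusted P = 0.749). In the fit without WT replicate 1 the log2 fold change of H2-D1 was 0.019, 8 of the 13 genes were above 0 and the median was 0.03. Whether the 2 pathways differ from each other was not tested.

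Markers of the cells that carry class II were measured in the same samples. The 7 markers of mature B cells all had a log2 fold change above 0, with a median of 0.58, and 5 were higher at an unadjusted P under 0.05 (4.51% of all tested genes). Their summed level was 55.2, 79.2, 86.5 and 89.7 CPM in WT and 94.6, 119 and 122 CPM in Trpc1-/-. The sums did not overlap. Fcer2a, the low-affinity IgE receptor of follicular B cells, was at 4.32 to 5.14 CPM in WT and 5.36 to 8.81 CPM in Trpc1-/-, with a log2 fold change of 0.70 ± 0.18 (SE) and an adjusted P of 0.395 by edgeR and 0.0354 by DESeq2. It was the only marker of the list that DESeq2 called as higher (0.962% of all tested genes). With samples left out, 2 of the 7 were called without WT replicate 1 (3.17%) and 3 without Trpc1-/- replicate 1 (0.274%). The count was also 2 without WT replicate 4, where the share of all tested genes is not given here. It was 0 without WT replicate 2, WT replicate 3, Trpc1-/- replicate 2 or Trpc1-/- replicate 3. The other named markers had log2 fold changes of 0.78 for Cr2, 0.71 for Ccr6, 0.58 for Ighd, 0.50 for Cxcr5, 0.49 for Fcmr and 0.42 for Ms4a1, the most abundant. Ccr6, one of the 5, was above 1 CPM before TMM in 0 of 4 WT and 2 of 3 Trpc1-/- samples, so it passed the filter only through the group in which it was higher. When WT replicate 1 was left out, all 7 were higher at an unadjusted P under 0.05 (8.48% of all tested genes), with a median of 0.52 and smaller values of 0.26 for Fcmr and 0.25 for Ms4a1. Leaving out WT replicate 2, Trpc1-/- replicate 2 or Trpc1-/- replicate 3 left 3 of the 7 at that P (2.99%, 3.91% and 2.18% of all tested genes). No marker of this list was at 0.

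The wider B lineage list had 0 of 8 genes at that P, 7 of 8 above 0 and a median of 0.21. The count was 1 without WT replicate 1 (8.48% of all tested genes) or 2 (2.99%), and 2 without WT replicate 3 (4.61%) or Trpc1-/- replicate 1 (2.36%), where the medians were 0.26 and 0.31. Its sum was 261, 292, 300.4 and 262 CPM in WT and 281, 352 and 318 CPM in Trpc1-/-, with overlap. Ebf1, the most abundant, had a log2 fold change of -0.04 and Cd79a, whose groups did not overlap, 0.43. B-cell precursors had 0 of 5 tested genes at that P, with all 5 above 0, a median of 0.27, 0.06 for Rag1, the most abundant, and groups apart for Vpreb1 (0.45) and Igll1 (0.30). Without WT replicate 1, 4 of the 5 precursor genes were above 0 and 1 was higher at that P (8.48% of all tested genes). Without WT replicate 4 or Trpc1-/- replicate 1, 3 of the 5 were above 0. Plasma cell genes had 0 of 4 tested at that P, with 3 above 0, a median of 0.09, a range from -0.12 to 0.60 and 0.05 for Xbp1, the most abundant. Without WT replicate 1, 2 of these 4 were above 0 and 1 was higher at that P (8.48%). Leaving out WT replicate 1 gave medians of 0.17, 0.12 and -0.01 for the B lineage, precursor and plasma cell lists, and log2 fold changes of 0.09 for Ebf1, 0.27 for Cd79a, -0.01 for Rag1, 0.28 for Vpreb1, 0.12 for Igll1 and -0.05 for Xbp1.

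Conventional dendritic cell markers had 1 of 6 tested genes higher at an unadjusted P under 0.05 (4.51% of all tested genes) and a median of 0.08. Their sum was 61.0, 55.5, 55.0 and 64.2 CPM in WT and 58.8, 62.4 and 62.0 CPM in Trpc1-/-, with overlap. The 1 gene was Ccr7, the receptor of migrating dendritic cells, at 2.51 to 3.77 CPM in WT and 4.17 to 4.69 CPM in Trpc1-/- (log2 fold change 0.49 ± 0.16, SE; edgeR adjusted P = 0.430). Zbtb46, the most abundant, had -0.03. Of these 6 genes, 0 were at that P without Trpc1-/- replicate 3 (2.18%) and 2 without Trpc1-/- replicate 2 (3.91%), and the median was 0.16 without WT replicate 4. Plasmacytoid dendritic cells had 0 of 5, with 3 above 0, a median of 0.20, -0.01 for Siglech, the most abundant, and a sum of 27.0 to 58.1 CPM in WT and 45.4 to 53.1 CPM in Trpc1-/-. The direction of the plasmacytoid median turned with single samples. It was -0.03 without WT replicate 4 or Trpc1-/- replicate 3, with 2 of 5 above 0 in both. The medians without WT replicate 1 were 0.06 for conventional and 0.01 for plasmacytoid dendritic cells, with log2 fold changes of 0.39 for Ccr7, 0.08 for Zbtb46 and -0.18 for Siglech.

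All 10 macrophage markers had a log2 fold change above 0, with a median of 0.28, and 2 were higher at an unadjusted P under 0.05 (4.51% of all tested genes). Their sum was 705, 1003, 1042 and 982 CPM in WT and 1175, 1032 and 1179 CPM in Trpc1-/-, with WT replicate 3 above the lowest Trpc1-/- sample. The 2 genes were the scavenger receptors Mrc1 (0.32 ± 0.10, SE; edgeR adjusted P = 0.410) and Cd163 (0.42 ± 0.15, SE; edgeR adjusted P = 0.455), and Vcam1, the most abundant, was also apart between groups (0.41 ± 0.19, SE; edgeR adjusted P = 0.511). The macrophage median was 0.14 without WT replicate 1, where 8 of the 10 were above 0 and 4 were higher at that P (8.48% of all tested genes), and Vcam1 had 0.26. Without Trpc1-/- replicate 1 none of the 10 was at that P (2.36%). Monocyte markers had 0 of 5 at that P and a median of -0.03. Their sum was 501, 886, 941 and 1020.5 CPM in WT and 799, 764 and 883 CPM in Trpc1-/-, and F13a1, the most abundant, had -0.10. With WT replicate 1 left out, the monocyte median was -0.22, 3 of the 5 were lower at that P (8.38% of all tested genes) and F13a1 had -0.22. The direction turned with single samples: the median was 0.11 without WT replicate 4, with 4 of 5 above 0, and 0.08 without WT replicate 3.

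T cell markers were low, with summed levels of 7.42 to 14.4 CPM in WT and 14.2 to 16.0 CPM in Trpc1-/-. In that list 2 of 6 were higher at an unadjusted P under 0.05 (4.51% of all tested genes), Cd3e (0.58) and Cd3d (0.82). The count was 1 without WT replicate 2 (2.99%) or 3 (4.61%), or without Trpc1-/- replicate 1 (2.36%), 2 (3.91%) or 3 (2.18%). All 6 were above 0 with a median of 0.31, and Lck, the most abundant, had 0.10. Cd3e was above 1 CPM before TMM in 0 of 4 WT and 3 of 3 Trpc1-/- samples, so it too passed the filter only through the group in which it was higher. Neutrophil markers had 0 of 8, although all were above 0 with a median of 0.18, and S100a9, the most abundant, was at 1596 CPM in WT replicate 1 and at 4414 to 6109 CPM in the other samples. Without that library 3 of the 8 neutrophil markers were above 0, with a median of -0.07 and 0.017 for S100a9, and 3 of the 6 T cell markers were, with a median of 0.10 and -0.02 for Lck.

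For red cell precursors, 8 of 8 erythroid markers had a log2 fold change above 0, 7 at an unadjusted P under 0.05 (4.51% of all tested genes), and the median was 0.41. Their sum was 2192, 2349, 2348 and 2214 CPM in WT and 3242, 2670 and 2851 CPM in Trpc1-/-, without overlap. DESeq2 called 3 of the 8 markers as higher (0.962% of all tested genes), among them Slc4a1 (the most abundant, adjusted P = 0.00505) and Rhag (0.000215). Other named genes were Klf1 (log2 fold change 0.48), Hemgn (0.48) and Epb42 (0.38). Fitted without WT replicate 1, the list had a median of 0.35, 7 were at that P (8.48% of all tested genes) and DESeq2 called 6 (3.17%). Without Trpc1-/- replicate 1, the sample with the highest sum, the median was 0.28, 2 were at that P (2.36%), DESeq2 called 1 (0.274%), and Klf1 had 0.25 and Hemgn 0.31.

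The labelled tissue was checked against its own markers. Chondrocyte markers were present in every sample, with a sum of 4136 to 4322 CPM in WT and of 2135, 4531 and 2472 CPM in Trpc1-/-. All 6 had a log2 fold change below 0, with 0 at an unadjusted P under 0.05, a median of -0.42 and -0.48 for Col2a1, the most abundant. Osteoblast and osteocyte markers, also all below 0 and 0 of 6 at that P, had a median of -0.28 and -0.46 for Col1a1. These values depended on single samples. Without Trpc1-/- replicate 2 the medians were -0.72 and -0.48, with 3 and 4 of 6 lower at that P (5.97% of all tested genes). For the fit without WT replicate 1 they were -0.48 and -0.29, with 3 and 1 of 6 lower (8.38%) and -0.21 for Col1a1. Without Trpc1-/- replicate 1 the medians were -0.26 and -0.19, with 0 of 6 in both. Endothelial markers had 0 of 5 and a median of -0.08, with Cdh5 (-0.10) lower in every Trpc1-/- sample and Pecam1, the most abundant, at -0.03. The endothelial median was -0.03 without WT replicate 2 or Trpc1-/- replicate 1. Without WT replicate 1 (8.38% of all tested genes) or Trpc1-/- replicate 2 (5.97%), 1 of the 5 was lower at that P. The samples thus held transcripts of blood, marrow and bone cells beside those of cartilage, and the mature B cell and erythroid sums were higher in every Trpc1-/- sample, as the classical chains were. Their part in the class II values was not tested.

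**Figure D4:**
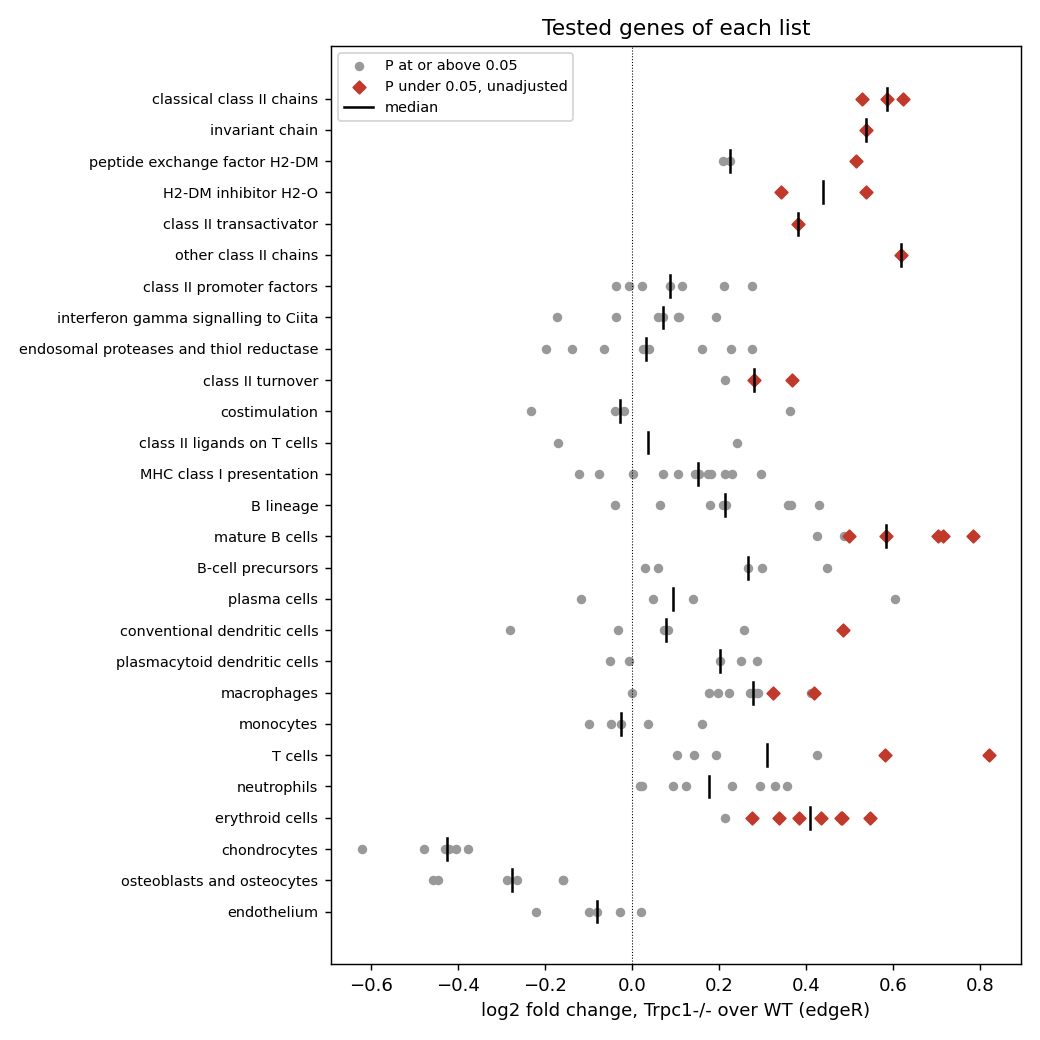
Log2 fold change by edgeR, Trpc1-/- over WT (horizontal axis), of every tested gene of the class II roles, pathway lists and cell type marker lists (rows). Diamonds mark genes at an unadjusted P under 0.05, grey circles the rest and black ticks the medians. Among the medians are 0.59 for the classical chains, 0.58 for mature B cell markers and 0.41 for erythroid markers. The other class II chains, with H2-Eb2 as the 1 tested gene, are at 0.62.

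H2-Aa was also set against the leading marker of each cell type within samples. H2-Aa counts per count of F13a1, the monocyte gene, were 0.271, 0.225, 0.236 and 0.227 in WT and 0.406, 0.401 and 0.369 in Trpc1-/-. The groups were apart, with a log2 difference of 0.71 (two-sided exact permutation P = 0.0286, adjusted 0.114). They were also apart for H2-Aa over Ebf1 (0.67), Zbtb46 (0.65) and Siglech (0.58). They overlapped for H2-Aa over Ms4a1 (0.16), the mature B cell gene, over Vcam1 (0.19), the macrophage gene, and over Slc4a1 (0.29), the erythroid gene. For Ms4a1 and Vcam1 the overlap came from WT replicate 1. Without it H2-Aa was higher in every Trpc1-/- sample over Ms4a1 (0.29) and over Vcam1 (0.29), as it was over F13a1 (0.77), Ebf1 (0.47), Zbtb46 (0.47) and Siglech (0.71), and the groups still overlapped over Slc4a1 (0.22).

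Across the 7 samples, the log2 CPM of H2-Aa and H2-Eb1 had a Pearson correlation of 0.998, and H2-Aa and Cd74 one of 0.975. Among the class II genes other than Ciita the lowest was 0.716, for H2-DMa and H2-Ob. Ciita followed the rest less closely, from -0.083 with H2-DMa to 0.560 with H2-Ob, and at 0.486 with H2-Aa. The 10 genes outside the class II set whose log2 CPM followed the mean standardised profile of H2-Aa, H2-Ab1, H2-Eb1 and Cd74 most closely, among those with a mean of at least 5 CPM, were Timm8a1 (Pearson r = 0.992), Ublcp1 (0.990), Gm11868 (0.988), Bnip3l (0.986), Dcaf12 (0.986), Esco2 (0.986), Slc40a1 (0.985), Uqcrq (0.984), Tes3-ps (0.983) and Cep57 (0.980). These are descriptions over 7 samples that share their depth and scaling, picked from all tested genes above that level. Group means were not removed, so the difference between genotypes and the low WT replicate 1 both enter these correlations. Gm11868 stood out in size, at 1.89 ± 0.759 CPM (SD, n = 4) in WT and 14.2 ± 0.269 CPM (SD, n = 3) in Trpc1-/-, while the other 9 had log2 fold changes of 0.16 to 0.50. Slc40a1, the iron exporter of macrophages and red cell precursors, was at 197 ± 25.6 CPM (SD, n = 4) in WT and 278 ± 21.7 CPM (SD, n = 3) in Trpc1-/-.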

How the data were processed

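Per the labels and methods, stranded total RNA libraries were trimmed with cutadapt 2.5 and aligned to GRCm38 with HISAT2 2.1.0, using strand. The authors deposited estimated counts per gene from StringTie 2.0.3; they were already whole numbers, so rounding changed none. Genes antisense to H2-Oa, H2-Eb1 and H2-DMa are therefore separable by strand. Groups follow the labels. Genes above 1 CPM in at least 2 samples were fitted with edgeR 4.0.16 (TMM, quasi-likelihood test, R 4.3.3) on all 7 samples, and P was adjusted by Benjamini-Hochberg over 16429 genes. The SE is the log2 fold change over the root of F. DESeq2 1.42.0, limma 3.58.1 (voom), other scalings and filters, each sample left out and a replicate block were alternatives. The fits were tested on 1 set of simulated counts, where the share of false calls was above the threshold for all 3 tools and highest for DESeq2. TPM used GENCODE basic exon lengths, found for 99.5% of genes. Named genes were all 10 class II genes, each list's most abundant gene and those at an unadjusted P under 0.05 or with groups apart, and the 10 most alike genes. Single values of some list genes are not reported here; counts, sums and medians include them. The genes and lists were chosen with earlier results of these data known. Replicates are separate pools of animals.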

Additional observations from a re-analysis of the deposited data

Results flagged for a closer look

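Among the 65 named genes, 7 had a WT sample whose gap to the others was large beside the range of the 4 by Dixon's test, and in all 7 it was WT replicate 1, as the lowest. H2-DMb2 was at 7.48 CPM there against 10.3 to 10.8 CPM in the other WT samples. Ctsb was at 407 CPM against 601 to 638 CPM. Fcmr was at 3.92 CPM against 9.20 to 9.92 CPM. Xbp1 was at 89.9 CPM against 118.2 to 122.8 CPM. Vcam1 was at 168 CPM against 272 to 293 CPM. Lck was at 3.82 CPM against 5.64 to 5.99 CPM. Slc40a1 was at 158 CPM against 205 to 212 CPM. Chance alone picks out about 1 in 20 such groups, and these genes are not independent, since they share that library.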

How the results depend on the processing

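All 10 class II genes kept a log2 fold change above 0 in 150 of 150 pairs of gene and alternative. DESeq2 gave 294 calls in all and 4 among the 10, with log2 fold changes of 0.63 for H2-Aa, 0.53 for H2-Ab1, 0.59 for H2-Eb1 and 0.54 for Cd74, where edgeR gave 0 and 0 and limma-voom 1 and 0. The cause was not tested. Other scalings and filters gave 0 calls. With samples left out, edgeR called 0 to 49 genes and 0 to 3 of the 10, and only leaving out WT replicate 1 gave any; the values ran from 0.54 to 0.67 for H2-Aa, 0.44 to 0.57 for H2-Ab1 and 0.52 to 0.62 for H2-Eb1. DESeq2 with samples left out, an alternative added after seeing the data, called 37 genes (without Trpc1-/- replicate 3) to 890 (without WT replicate 1) and 2 to 5 of the 10; the 2 came without WT replicate 2, Trpc1-/- replicate 1 or Trpc1-/- replicate 3.

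Same-numbered replicates deviated from their group means with correlations of -0.35, -0.20 and -0.04, so the numbers do not pair samples. With the replicate block edgeR called 0 of the 10 with a median log2 fold change of 0.58, and DESeq2, added after seeing the data, called 53 genes and 2 of the 10. In the 5 samples of the lower label range the median was 0.65, and DESeq2, also added later, called 184 genes and 4 of the 10.

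Some uncalled values near 0 changed sign. With the block, Icosl was 0.048, Rag1 -0.043 and Siglech 0.024; in the lower label range, Icosl was 0.10, Siglech 0.15 and F13a1 0.071. Zbtb46 was 0.00318 by limma-voom and 0.00194 without a filter, and Siglech 3.90e-05 by DESeq2 and 0.00833 without a filter. With samples left out the values ran from -0.14 to 0.056 for Icosl, -0.16 to 0.088 for Ebf1, -0.047 to 0.23 for Rag1, -0.049 to 0.091 for Xbp1, -0.11 to 0.077 for Zbtb46, -0.18 to 0.13 for Siglech, -0.021 to 0.17 for Lck and -0.069 to 0.00666 for Pecam1. The cause was not tested. The 3 pools of the smaller group limit the precision, and H2-Oa, with 78 to 391 counts a sample, had the least depth of the 10 genes.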
